A study of Mus with 14 samples.

Results

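The interferon response module examined here is a list of 45 mouse genes that type I and type II interferons are known to switch on. Its members were taken by name. Of the 45 genes, 43 had a row among the 32285 genes of the count matrices; Mx1 and Mx2 were not matched and were not analysed here. All 43 passed the filter on low counts when the kept cells of each library were summed. The series holds 14 droplet single-cell RNA libraries, 1 per mouse, of marrow cells that lacked lineage markers, carried Kit and were of donor origin (CD45.2+). Per the labels, donor marrow was first placed with competitor CD45.1+ marrow into aged, irradiated CD45.1+ hosts, which later received 1 injection of poly(I:C). Marrow from these primary hosts was moved to aged, irradiated secondary hosts, and the cells were collected 20 weeks after that second transplant.

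The 4 groups were MxCre (3 mice), the control that carried the recombinase alone, Dnmt3a (4 mice), Dnmt3a;Tnfr1KO (3 mice) and Dnmt3a;Tnfr2KO (4 mice). The last 2 are labelled as joining the Dnmt3a allele with loss of a receptor of tumour necrosis factor and are written Tnfr1KO-labelled and Tnfr2KO below. The recombinase is driven by the promoter of Mx1, itself an interferon target, and poly(I:C) is a mimic of viral RNA that evokes interferon, so the controls shared both the transgene and the injection. The labels do not say which primary host supplied which secondary mouse, and if some came from the same host the p-values measure only the spread between libraries, which may be technical.

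Interferons bind receptors that signal through the kinases Jak1, Jak2 and Tyk2 to transcription factors. Stat2 and Irf9 act in a complex that enters the nucleus and switches on a large set of antiviral genes. The products sense viral RNA, block translation, degrade nucleic acid, tag proteins and attack vacuoles that hold pathogens. In marrow, interferon is known to push resting stem cells into cycle, and stem cells are known to keep some of these genes on without infection.

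Libraries held 62416022 to 162869740 UMIs (unique molecular identifiers, each counting a captured transcript), and 66895 cells were kept. Dnmt3a 1 kept 26.5% of its barcodes against 63.2% to 91.6% in the other 13 libraries. Pairs of libraries shared 2 to 23 barcodes, at most 0.348% of the smaller library. Levels of Hist1h2ap and Gm10076 separated the MxCre and Tnfr1KO-labelled libraries and Tnfr2KO 1 and 2 (high) from all Dnmt3a libraries and Tnfr2KO 3 and 4 (low). The labels name no batch, and this split cannot be told apart from the Dnmt3a group in comparisons with MxCre or Tnfr1KO-labelled. Only Tnfr2KO has mice on both sides, so fits with the split as a term estimate it from those mice alone. A call lost in such a fit does not show what part the split had. Levels below are in CPM (UMIs of a gene per 1000000 UMIs of the library). Tnfrsf1b stood at 4.37 to 5.46 CPM in Tnfr2KO and 10.3 to 16.9 elsewhere. Tnfrsf1a was at 33.7 to 42.1 CPM in Tnfr1KO-labelled against 32.4 to 67.7 elsewhere, and Dnmt3a at 28.0 to 33.0 CPM in the Dnmt3a group against 22.4 to 28.4 in MxCre. In the receptor groups Dnmt3a was lower than in every mouse of the Dnmt3a group, at 21.2 to 22.4 CPM in Tnfr1KO-labelled and 22.8 to 25.2 CPM in Tnfr2KO. The labels do not give the deleted exons, so 3′ counts of these genes may not check the genotypes.

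Most of the module's signal came from a few members. Levels are CPM with edgeR's TMM library scaling, and because the method counts 3′ ends they are not divided by gene length. Mean levels over the 14 libraries ran from 0.292 CPM for Ifit3 to 125 CPM for Bst2. Of the 43 members, 22 had means under 10 CPM and 3 had means over 50 CPM. The 10 highest were Bst2, Ifi27, Ifi47, Sp100, Gbp3, Samhd1, Lgals3bp, Gbp7, Eif2ak2 and Ifi35, which together held 56.6% to 70.6% of the summed level in each library. A sum over the module therefore mostly reports these genes, whereas classical induced genes such as Ifit1, Oas2, Usp18 and Rsad2 lay under 10 CPM on average.

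By role, the tethering factor Bst2, which holds budding virions at the cell surface, led the list at 131 ± 14.6 CPM in MxCre (SD, n = 3) and 108 ± 8.91 CPM in Dnmt3a (SD, n = 4). In Tnfr1KO-labelled Bst2 was at 133 ± 13.6 CPM (SD, n = 3) and in Tnfr2KO at 131 ± 13.2 CPM (SD, n = 4), and all 7 of these mice lay above all Dnmt3a mice. Ifi27, a small membrane protein of mitochondria and the nuclear envelope, had means of 122, 85.3, 91.2 and 95.3 CPM in MxCre, Dnmt3a, Tnfr1KO-labelled and Tnfr2KO. The 3 MxCre values of Ifi27 ran from 115 to 129 CPM, and those of the other 11 mice from 53.7 to 122 CPM. Among the GTPases that act on pathogen vacuoles, Ifi47 averaged 67.6, 63.1, 61.0 and 68.6 CPM in the same order, Gbp3 31.2, 47.8, 39.01 and 43.3 CPM, and Gbp7 33.4, 35.7, 25.6 and 29.0 CPM. Samhd1, which destroys the building blocks of DNA, averaged 37.7, 43.4, 36.6 and 35.2 CPM. Sp100, a nuclear body protein, averaged 43.7, 55.4, 45.2 and 42.7 CPM, and the kinase Eif2ak2 (PKR), which stops translation on sensing double-stranded RNA, 28.0, 34.5, 26.5 and 29.8 CPM. Lgals3bp, a secreted glycoprotein, averaged 43.8, 27.8, 35.9 and 37.0 CPM, and Ifi35, a partner of Nmi, 30.1, 26.1, 32.5 and 31.3 CPM. By edgeR with all libraries in the fit, none of these 10 was called in an all-cell comparison. DESeq2 called Lgals3bp (lower) and Sp100 (higher) in Dnmt3a against MxCre, and Sp100 (lower) in Tnfr2KO against Dnmt3a.

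Several members lie side by side in the genome (positions from RefSeq, build GRCm38.p6). Ifit2, Ifit3 and Ifit1 occupy chr19:34550550-34650009, and Rsad2 and Cmpk2 lie next to each other at chr12:26442743-26479837. Oas2, Oas3 and Oas1a lie within chr5:120730333-120907544, and Gbp7, Gbp3 and Gbp2 within chr3:142530336-142638008. Chromosome 11 carried 8 of the 45 members, the most of any. Usp18 lies 4.10 Mb from Tnfrsf1a on chromosome 6 and Isg15 11.0 Mb from Tnfrsf1b on chromosome 4, and each is the member nearest to a receptor gene targeted in the study. Ddx58 also lies on chromosome 4, 105 Mb from Tnfrsf1b. Rsad2, Cmpk2 and Ifi27 share chromosome 12 with Dnmt3a, at 22.6, 22.7 and 99.6 Mb. Close paralogues in the Ifit, Oas, Gbp and Ifi200 families can share reads, and their counts are uncertain to that extent.

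Of the 5 cell classes tested between groups, stem-like cells had the highest median level of the module. Cells were sorted into classes by fixed markers, none of which is a member. Over the 14 libraries the summed level, here without the TMM factor, had a median of 1263 CPM in stem-like cells (1099 to 1455 CPM), whose leading genes were Hlf, Mecom, Ctla2a and Meis1. The medians were 869 CPM in megakaryocyte-like (13 libraries), 754 CPM in erythroid-like, 729 CPM in monocyte-like and 659 CPM in granulocyte-like cells. The lowest stem-like library lay above the highest granulocyte-like library (829 CPM). Single libraries of other classes reached above all stem-like libraries. In erythroid-like cells 1 library did, Dnmt3a 4 at 2129 CPM. Among classes not tested between groups, the 152 dendritic-marked cells stood at 1131 and 2930 CPM in the 2 libraries with enough of them. None of that class's own markers was among its leading genes, so its name is uncertain. The medians were 1247 CPM in T, NK and innate lymphoid-marked cells (7 libraries, up to 2079 CPM), 1156 CPM in macrophage-marked cells (11 libraries, up to 1878 CPM), 1113 CPM in mature B-marked cells (8 libraries, up to 1603 CPM) and 1102 CPM in B-lymphoid-like cells (4 libraries, up to 1626 CPM). The share of kept cells that was stem-like ran from 9.52% to 23.0% in MxCre, 1.49% to 9.98% in Dnmt3a, 1.77% to 5.67% in Tnfr1KO-labelled and 3.92% to 7.44% in Tnfr2KO. Dnmt3a 4 had the lowest of these shares and the highest all-cell sum. The part of this share in the all-cell results was not tested, and in such sums fewer cells of a type and less RNA per cell cannot be told apart.

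Summed over all kept cells and all 43 members, the module was lower in Tnfr2KO than in MxCre without overlap. On that sum the groups overlapped in the other 5 comparisons. In MxCre 1 to 3 the sum was 974, 879.6 and 845 CPM. In Dnmt3a 1 to 4 it was 858, 773, 776 and 977 CPM. The Tnfr1KO-labelled mice stood at 853, 748 and 752 CPM, and the Tnfr2KO mice at 799, 769, 813 and 809.995 CPM. Group means were 899.7 ± 66.8 CPM (SD, n = 3), 846 ± 96.2 (n = 4), 784 ± 59.5 (n = 3) and 798 ± 20.2 CPM (n = 4). Tnfr2KO lay 11.3% below MxCre on average and Tnfr1KO-labelled 12.8% below. Dnmt3a 4 was the highest of all 14 mice, level with MxCre 1, and the other 3 Dnmt3a mice stood at 858 CPM or lower. The Dnmt3a difference from MxCre was -0.09 on the log2 scale, and 0.01 when library totals were used without the TMM factor, so its direction depended on the scaling. Without that factor Tnfr2KO against MxCre went from -0.17 to -0.29, and against Dnmt3a the receptor groups went from -0.11 (Tnfr1KO-labelled) and -0.08 (Tnfr2KO) to -0.31 and -0.30. Without Dnmt3a 1 and 4 the Tnfr2KO value against Dnmt3a turned to 0.043. The members with means under 10 CPM, which weigh little in the full sum, were also summed alone. They summed to 123 to 136 CPM in MxCre and 73.6 to 174 CPM in Dnmt3a. The sums were 75.5 to 94.0 CPM in Tnfr1KO-labelled and 73.5 to 84.3 CPM in Tnfr2KO. On this part of the module both receptor groups lay wholly below MxCre.

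**Figure D1:**
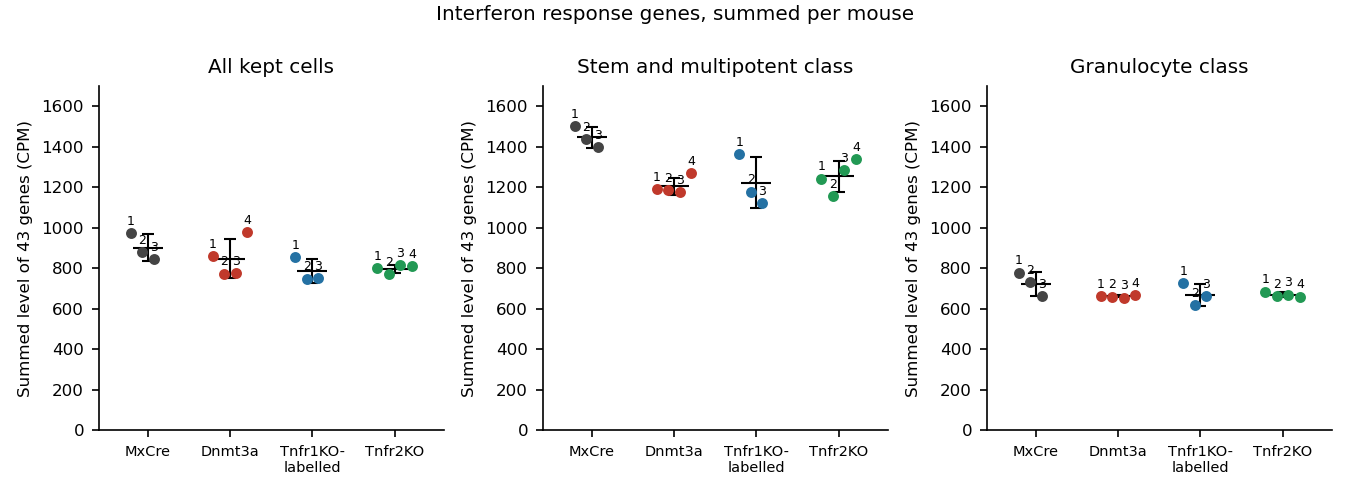
Summed level of the 43 members in CPM (y axis) for each mouse by group, in all kept cells, stem-like cells and granulocyte-like cells; points are mice with their replicate numbers, bars the mean and SD. In stem-like cells the 3 MxCre mice, at 1397 to 1502 CPM, sit above all 11 others, and in granulocyte-like cells the groups overlap.

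Against MxCre, the Dnmt3a group had 1 of 43 members called in all cells by edgeR's quasi-likelihood test at an adjusted p below 0.05, beside 2.42% of the 15631 genes tested. That member was Ifi209, a nuclear DNA-binding protein of the Ifi200 family, and it rose. Ifi209 was at 8.53, 10.4 and 4.42 CPM in MxCre and at 38.8, 13.997, 17.3 and 44.1 CPM in Dnmt3a. All Dnmt3a values lay above all MxCre values, and the Tnfr1KO-labelled (28.0, 12.8 and 17.9 CPM) and Tnfr2KO mice (24.7, 15.8, 11.7 and 12.2 CPM) did too. The log2 fold change was 1.88 (SE 0.456, adjusted p = 0.0484). The call held in 4 of 16 alternatives. Without Dnmt3a 1, 3 or 4 the adjusted p was 0.0943, 0.0644 or 0.0606, without MxCre 1, 2 or 3 it was 0.133, 0.104 or 0.181, and the log2 fold change without both Dnmt3a 1 and 4 was 1.01. It was also lost with doublets kept (0.0513), without the filter on low counts (0.0515), with only the 2 groups in the fit (0.136) and with the library split as a term (0.306).

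Ifi209 marked particular lineages. In monocyte-like cells, where it was among the leading genes of the class, its level was 48.7 to 78.4 CPM in MxCre and 63.1 to 123 CPM in Dnmt3a, and those ranges overlapped. In Dnmt3a 4, 55.9% of its UMIs came from 1980 B-lymphoid-like cells, which had 167 CPM, and another 25.4% from monocyte-like cells. In that mouse B-lymphoid-like cells were 36.5% of kept cells, against 0.0511% to 0.0712% in MxCre. Monocyte-like cells made up 7.32% to 15.7% of kept cells in Dnmt3a and 4.23% to 6.90% in MxCre. Their part in the all-cell rise of Ifi209 was not tested. Within granulocyte-like cells Ifi209 was at 3.43, 2.88 and 1.55 CPM in MxCre and 9.36, 5.59, 5.89 and 6.40 CPM in Dnmt3a, again without overlap (log2 fold change 1.33, adjusted p = 0.0784).

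The rest of the module leaned lower in Dnmt3a than in MxCre without passing the test in all cells. Of 43 members 27 had a log2 fold change below 0, beside 46.2% of all genes tested, with a median of -0.19 against 0.03 over all genes. At an unadjusted p below 0.05 there were 15 members, 9 lower and 6 higher, where 23.6% of all genes reached that level (10.2% lower and 13.3% higher). The members with the largest changes after Ifi209 were the GTPase Iigp1 (-1.52, adjusted p = 0.0766), the receptor transport protein Rtp4 (-1.0, 0.0678), the filament-associated Ifi44 (-0.97, 0.296) and the nucleic acid sensor Zbp1 (-0.77, 0.177), given as log2 fold changes with edgeR adjusted p-values. Rtp4 stood at 10.4, 7.85 and 8.47 CPM in MxCre and 4.78, 3.36, 3.80 and 5.90 CPM in Dnmt3a, with no overlap. DESeq2 called 7 members beside 9.91% of all genes, namely Ifi209, Iigp1, Lgals3bp, Oasl2, Rtp4, Sp100 and Stat2. Leaving out Dnmt3a 4 alone changed the calls to Isg15, Isg20, Rsad2, Rtp4 and Zbp1, which are 5 members and all lower, beside 3.27% of all genes. Leaving out Dnmt3a 2 gave 3 members, Ifi209, Lgals3bp and Sp100, beside 7.98% of all genes.

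**Figure D2:**
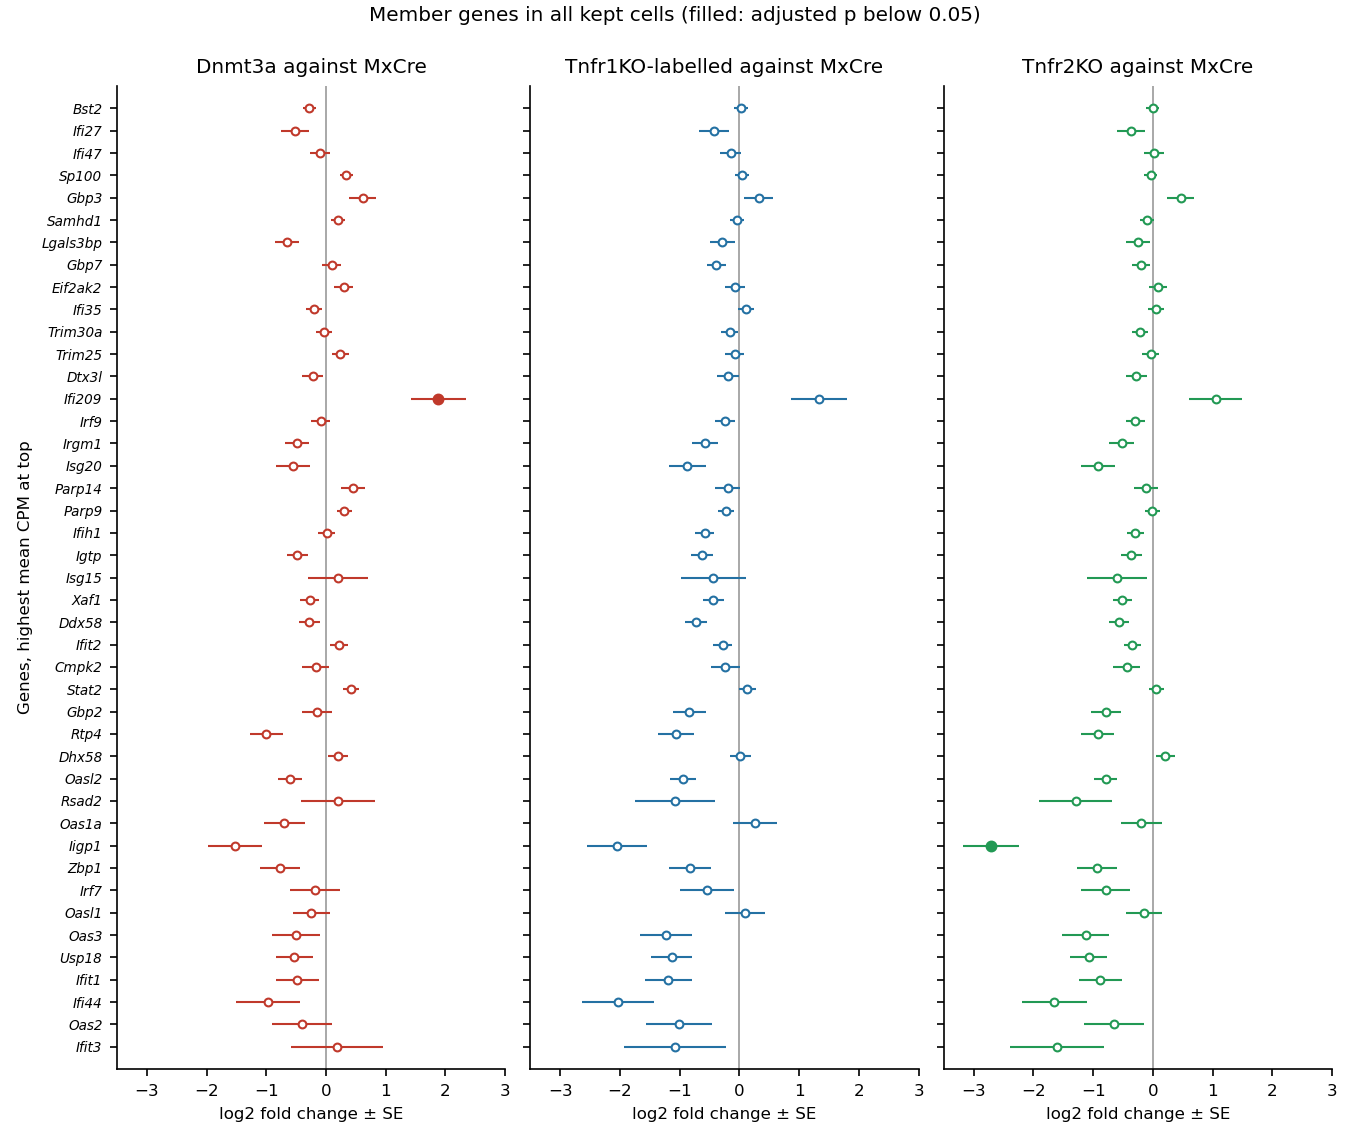
Log2 fold change of each member against MxCre in all kept cells (x axis) for the Dnmt3a, Tnfr1KO-labelled and Tnfr2KO groups; each point is 1 gene, bars are the SE and filled points passed the edgeR threshold. Ifi209 (1.88 in Dnmt3a) and Iigp1 (-2.71 in Tnfr2KO) are the called members, and 27, 34 and 36 of 43 members lie below 0, beside 46.2%, 49.2% and 50.1% of all genes.

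The Tnfr1KO-labelled mice had 0 of 43 members called against MxCre by edgeR, where 0.32% of all genes were called. At an unadjusted p below 0.05 there were 17 members, 16 lower and 1 higher, beside 12% of all genes (7.82% lower and 4.2% higher). DESeq2 called 7 members (Ddx58, Ifi44, Ifih1, Iigp1, Oasl2, Rtp4 and Usp18) beside 3.15% of all genes. In all, 34 members had log2 fold changes below 0, beside 49.2% of all genes, and the median was -0.39 against 0.00 over all genes. Iigp1 (-2.05), Ifi44 (-2.04), the synthetase Oas3 (-1.23), whose product switches on an RNA-cutting enzyme, and the RNA-binding Ifit1 (-1.19) had the most negative values, with adjusted p-values by edgeR of 0.0906, 0.155, 0.237 and 0.198. Ifi209 again had a positive value, 1.33 (adjusted p = 0.231).

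In Tnfr2KO against MxCre, edgeR called 1 of 43 members, beside 0.429% of all genes, and it was Iigp1. Iigp1 encodes an immunity-related GTPase that coats pathogen vacuoles. It was at 11.97, 5.18 and 9.72 CPM in MxCre, 3.77, 2.999, 1.28 and 4.47 CPM in Dnmt3a, 0.929, 2.99 and 2.60 CPM in Tnfr1KO-labelled, and 1.86, 1.56, 0.839 and 1.22 CPM in Tnfr2KO. All 11 mice of the other groups lay below the 3 MxCre mice, and all Tnfr2KO values except 1 were above the lowest Tnfr1KO-labelled value. The log2 fold change of Tnfr2KO against MxCre was -2.71 (SE 0.463, adjusted p = 0.0216). Without Tnfr2KO 2, 3 or 4 the adjusted p was 0.0632, 0.0683 or 0.0710, and without MxCre 1 or 3 it was 0.0583 or 0.103. It was 0.164 with the library split as a term and 0.199 with only the Tnfr2KO mice on the MxCre side of that split, and the call held in 9 of 16 alternatives. Across the module 36 members lay below 0, beside 50.1% of all genes, with a median of -0.34 against 0.00 over all genes. At an unadjusted p below 0.05 there were 14 lower members and 1 higher, beside 15.1% of all genes (7.56% lower and 7.57% higher). DESeq2 called Iigp1, Oasl2, Rtp4 and Usp18, which are 4 members, beside 2.54% of all genes. With the Tnfr2KO and MxCre libraries alone in the fit, 8 members were called, namely Ddx58, Ifi44, Iigp1, Isg20, Oasl2, Rsad2, Usp18 and Zbp1, all lower and beside 1.14% of all genes in that fit. The other members with large values were Ifi44 (-1.65), Ifit3 (-1.60), Rsad2 (-1.30) and Oas3 (-1.13), with edgeR adjusted p-values of 0.216, 0.3496, 0.338 and 0.237.

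Neither the Tnfr1KO-labelled nor the Tnfr2KO group had a member that passed edgeR's test against Dnmt3a in all cells. Tnfr1KO-labelled against Dnmt3a had 0 of 43 called (0.48% of all genes), 15 at an unadjusted p below 0.05 (19.7% of all genes) and 4 by DESeq2 (5.84% of all genes), which were Ifih1, Ifit2, Parp14 and Parp9. Tnfr2KO against Dnmt3a had 0 called (0.876% of all genes), 13 unadjusted (22.9% of all genes) and 4 by DESeq2 (6.99% of all genes), which were Ifit2, Iigp1, Parp14 and Sp100. Log2 fold changes lay below 0 for 36 and 33 members, beside 56.0% and 53.2% of all genes. The medians were -0.31 and -0.28 against -0.05 and -0.03 over all genes. Within groups, members varied together over the libraries (median r of pairs 0.34, and 0.04 without Dnmt3a 1 and 4). Tallies of members below 0 are therefore not counts of independent genes. Both comparisons share the Dnmt3a libraries. Tnfr2KO against Tnfr1KO-labelled had 0 members called by edgeR (0.186% of all genes), 0 at an unadjusted p below 0.05 (3.76%) and 0 by DESeq2 (0.633%), with 21 members below 0 (43.8% of all genes) and a median of 0.04. Its most extreme members were Iigp1 (-0.66), Ifit3 (-0.53), Oas1a (-0.45), Ifi44 (0.39) and Oas2 (0.37), each with an edgeR adjusted p of 1.

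Rsad2 and Ifit3 had large all-cell values against Dnmt3a, and among the Dnmt3a mice both were highest in Dnmt3a 4. Rsad2 (viperin), an enzyme that makes a chain-terminating nucleotide, was at 3.02, 2.22, 1.78 and 16.97 CPM in Dnmt3a 1 to 4, against 1.75 to 2.92 CPM in the 7 receptor-group mice. Its log2 fold changes were -1.27 in Tnfr1KO-labelled and -1.49 in Tnfr2KO (edgeR adjusted p = 0.289 and 0.161). Ifit3, which binds viral RNA with its neighbours, had -1.26 and -1.79 (adjusted p = 0.402 and 0.178), at 1.34 CPM in Dnmt3a 4 and 0.0799 to 0.253 CPM in the other Dnmt3a and receptor-group mice. The synthetase Oas1a went the other way in Tnfr1KO-labelled, at 6.74, 5.52 and 3.47 CPM against 2.87, 1.74, 2.47 and 3.76 CPM in Dnmt3a, with overlap (0.95, adjusted p = 0.164). Ifi44 (-1.07) and Oas3 (-0.73) were the other large values of Tnfr1KO-labelled against Dnmt3a (adjusted p = 0.308 and 0.3397). Those of Tnfr2KO against Dnmt3a were Iigp1 (-1.19), Ifi209 (-0.83) and Isg15 (-0.79), with edgeR adjusted p-values of 0.139, 0.2304 and 0.316. In Dnmt3a 4, B-lymphoid-like cells held 68.3% of the Iigp1 UMIs and 78.1% of the Ifi44 UMIs. Their part in the all-cell values of these 2 genes was not tested.

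Usp18 and Isg15, the protease and the ubiquitin-like tag it removes, were followed as the members nearest to the targeted receptor genes. Usp18 was at 2.93, 2.81 and 2.74 CPM in MxCre, 2.07, 1.37, 1.32 and 3.06 in Dnmt3a, 1.149, 1.81 and 0.887 in Tnfr1KO-labelled, and 1.36, 1.54, 0.968 and 1.51 CPM in Tnfr2KO. Every receptor-group mouse lay below every MxCre mouse, and both receptor groups overlapped Dnmt3a. The log2 fold changes against MxCre were -1.14 in Tnfr1KO-labelled and -1.07 in Tnfr2KO (edgeR adjusted p = 0.155 and 0.162). Isg15 was at 12.1, 11.5 and 8.53 CPM in MxCre and 7.26, 4.79, 5.72 and 31.2 CPM in Dnmt3a. In Tnfr1KO-labelled it was at 8.77, 8.03 and 6.90 CPM and in Tnfr2KO at 7.04, 6.21, 6.44 and 8.58 CPM. Dnmt3a 4 was the highest of the 14 mice and the other 3 Dnmt3a mice were below all MxCre mice. With all libraries in the fit Isg15 was called in none of the 6 comparisons (edgeR adjusted p = 0.316 to 1). Without Dnmt3a 4 it was called lower in Dnmt3a against MxCre, with a log2 fold change of -0.85 (SE 0.187, edgeR adjusted p = 0.0407).

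In stem-like cells the module separated MxCre from every other group. These cells numbered 1961 in MxCre, 824 in Dnmt3a (81 of them in Dnmt3a 4), 417 in Tnfr1KO-labelled and 1510 in Tnfr2KO. The module sum was 1502, 1437.5 and 1397 CPM in MxCre. It was 1189.7, 1184, 1174 and 1269 CPM in Dnmt3a, 1363, 1179 and 1121 CPM in Tnfr1KO-labelled, and 1242, 1155, 1283 and 1338 CPM in Tnfr2KO. All 11 of these lay below all 3 MxCre mice, by 16.7%, 15.6% and 13.2% on average in Dnmt3a, Tnfr1KO-labelled and Tnfr2KO, and the 3 groups overlapped each other. Without the TMM factor the Dnmt3a difference from MxCre shrank from -0.26 to -0.17 on the log2 scale. Cells with at least 5000 UMIs were thinned to that depth. Shallower stem-like cells were left out (38 in MxCre, 17 in Dnmt3a, 8 in Tnfr1KO-labelled and 95 in Tnfr2KO). Cells with at least 10 module UMIs then made up 21.1% to 24.4% of thinned stem-like cells in MxCre, 11.6% to 26.3% in Dnmt3a, 10.4% to 22.6% in Tnfr1KO-labelled and 10.2% to 17.5% in Tnfr2KO. On that scale only Tnfr2KO lay wholly below MxCre. The unthinned shares, which follow depth, were 84.0% to 94.5%, 81.7% to 98.8%, 70.6% to 91.1% and 48.1% to 83.5%.

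Against MxCre, 8 of 41 tested members fell in the stem-like cells of Dnmt3a mice and none rose, by edgeR's quasi-likelihood test. Over all 11396 genes tested 4.60% were called and 2.47% were called lower. The median log2 fold change of the members was -0.31 against 0.01 over all genes. The 8 were Ifi44, Ifit1, Iigp1, Zbp1, Rsad2, Isg20, Bst2 and Lgals3bp, and DESeq2 called the same 8 beside 5.7% of all genes. With the library split as a term the count was 2 (Bst2 and Ifi44), beside 0.518% of all genes. In that fit all 8 kept a negative log2 fold change, with a larger SE. Only Iigp1 moved towards 0 (from -1.17 to -0.90), and Ifit1, for example, went from -1.37 to -2.12. That fit takes the split from the Tnfr2KO mice alone. Kept signs or larger changes in it therefore do not show what part the split had either. Leaving out MxCre 1, 2 or 3 gave 3, 2 and 2 members, beside 2.46%, 0.589% and 0.494% of all genes. Leaving out Dnmt3a 1 or 3 gave 5 each, beside 2.22% and 3.32%, and without Dnmt3a 1 these included Dtx3l and Irf9, which are not among the 8. Ifi44 and Iigp1 were called in each fit that left out 1 library.

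Ifi44, a cytoplasmic antiviral protein, was at 10.0, 20.4 and 13.4 CPM in MxCre, 5.03, 4.19, 2.62 and 7.21 in Dnmt3a, 3.95, 5.75 and 2.36 in Tnfr1KO-labelled, and 7.04, 5.32, 9.85 and 9.17 CPM in Tnfr2KO. Again all 11 mice lay below MxCre, and the highest Tnfr2KO mouse came close to the lowest MxCre mouse. Its log2 fold change in Dnmt3a was -1.68 (SE 0.302, edgeR adjusted p = 0.00691). Against MxCre it was -1.69 in Tnfr1KO-labelled and -0.92 in Tnfr2KO (adjusted p = 0.0702 and 0.136). Isg20, an exonuclease that cuts single-stranded RNA, was at 29.0, 28.1 and 34.2 CPM in MxCre and 12.98 to 23.9 CPM in the other 11 mice. It fell by 0.69 in Dnmt3a (SE 0.171, adjusted p = 0.0269), and in the receptor groups the values were -0.65 and -0.62 (adjusted p = 0.276 and 0.0802). The Isg20 call was lost without Dnmt3a 1 or 4 or any single MxCre mouse (edgeR adjusted p = 0.0578 to 0.165) and with the library split as a term (0.345). Lgals3bp was at 78.0, 78.4 and 80.1 CPM in MxCre and at 54.3 to 64.4 CPM in Dnmt3a, 65.5 to 67.2 in Tnfr1KO-labelled and 62.9 to 75.2 CPM in Tnfr2KO. It fell by 0.43 in Dnmt3a (SE 0.0993, adjusted p = 0.0204), the smallest change among the 8. Its call was lost without Dnmt3a 3 or any single MxCre mouse (edgeR adjusted p = 0.0528 to 0.113) and with the library split as a term (0.146).

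For the other 4 called members at least 1 receptor group overlapped MxCre. Bst2 was at 135, 147 and 138 CPM in MxCre and 75.8, 109, 101 and 98.1 CPM in Dnmt3a (log2 fold change -0.55, SE 0.132, edgeR adjusted p = 0.0243), and in the receptor groups it ran from 111 to 118 CPM in Tnfr1KO-labelled and from 95.9 to 141 CPM in Tnfr2KO. Rsad2 was at 9.81, 14.8 and 15.1 CPM in MxCre and 5.42, 7.88, 8.27 and 5.29 CPM in Dnmt3a (-0.94, SE 0.223, adjusted p = 0.0224), and at 7.08 to 10.7 CPM in Tnfr1KO-labelled and 7.04 to 11.1 CPM in Tnfr2KO. Zbp1, which triggers cell death on sensing Z-form nucleic acid, was at 11.3, 11.4 and 9.25 CPM in MxCre and 4.84, 4.93, 3.43 and 8.17 CPM in Dnmt3a (-1.08, SE 0.275, adjusted p = 0.0306), and at 5.90 to 12.7 CPM in Tnfr1KO-labelled and 5.48 to 10.9 CPM in Tnfr2KO. Ifit1 was at 6.69, 7.86 and 11.8 CPM in MxCre and 3.48, 2.22, 3.23 and 5.77 CPM in Dnmt3a (-1.37, SE 0.375, adjusted p = 0.0422), and at 3.16 to 10.2 CPM in Tnfr1KO-labelled and 5.18 to 13.2 CPM in Tnfr2KO. In these 4 genes every Dnmt3a mouse lay below every MxCre mouse. The test had picked them on these same values, so that separation is no further support. Bst2 was no longer called without Dnmt3a 1 or any single MxCre mouse (adjusted p = 0.0550 to 0.101). Rsad2 was no longer called without Dnmt3a 1, MxCre 2 or MxCre 3 (adjusted p = 0.0739, 0.0914 and 0.146). Zbp1 lost its call when Dnmt3a 1 or 3 or any single MxCre mouse was left out, with adjusted p from 0.0769 to 0.105. Ifit1 lost its call when Dnmt3a 1, 2 or 3 or any single MxCre mouse was left out, with adjusted p from 0.0517 to 0.257.

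**Figure D3:**
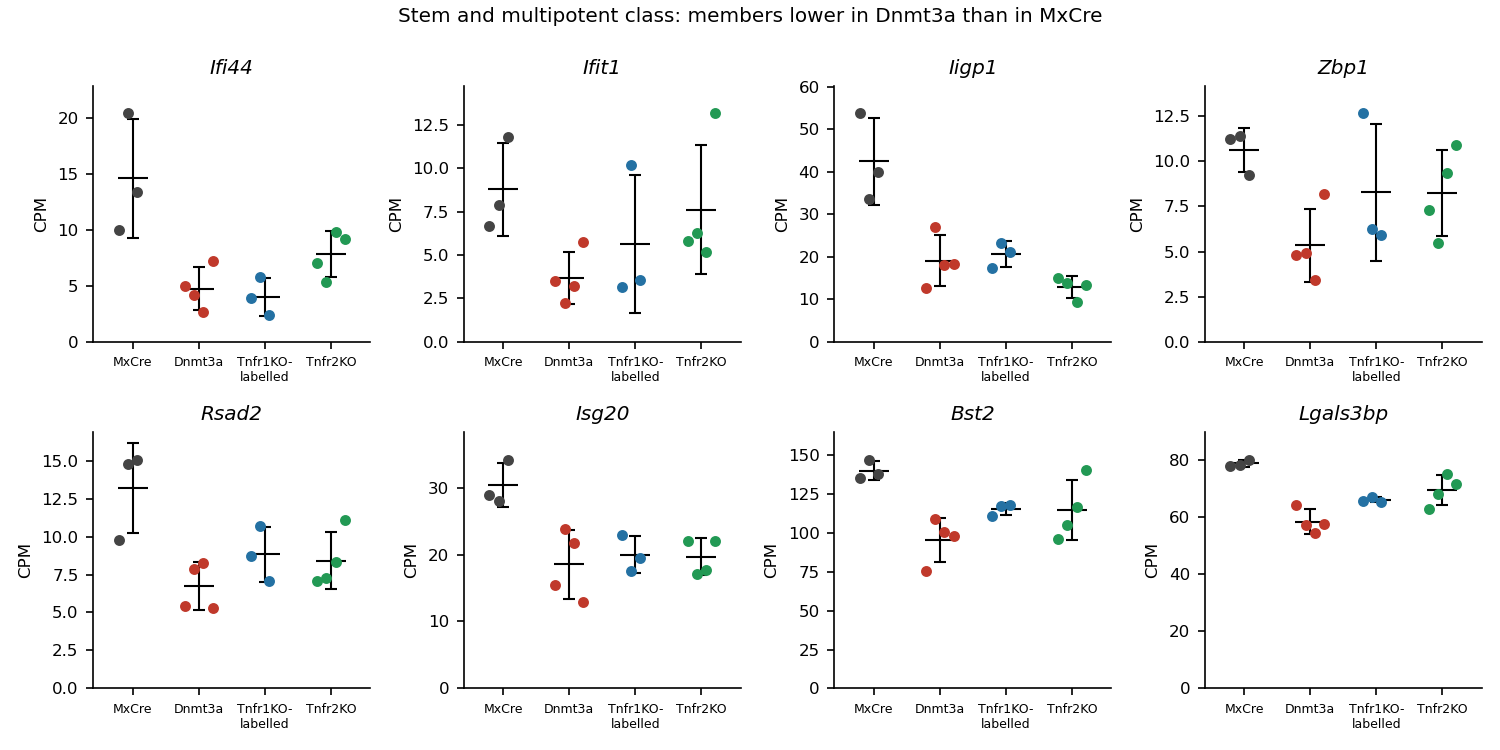
Level in CPM (y axis) of the members called in stem-like cells, 1 panel per gene, for each mouse by group; points are mice, bars the mean and SD. For Iigp1 the MxCre mice span 33.7 to 53.7 CPM and the other 11 mice 9.33 to 27.1 CPM, and every Dnmt3a mouse lies below every MxCre mouse in each panel. The genes were picked by the test on these same Dnmt3a and MxCre values.

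In the other stem-like comparisons few members were called. Tnfr2KO against MxCre had 1 of 41 (Iigp1), beside 1.35% of all genes, and 10 at an unadjusted p below 0.05, beside 10.9% of all genes. Tnfr1KO-labelled against MxCre had 0 by edgeR (0.246% of all genes), 8 at an unadjusted p below 0.05 (7.84%) and 2 by DESeq2 (0.412%), Ifi44 and Iigp1. Against Dnmt3a, Tnfr1KO-labelled had 0 by edgeR (0.544%), 4 unadjusted (12.8%) and 0 by DESeq2 (1.33%). Tnfr2KO against Dnmt3a had 0 by edgeR (0.676%), 8 unadjusted (13.2%) and 0 by DESeq2 (1.33%). The medians of the members were -0.28 and -0.19 against MxCre and 0.02 and 0.08 against Dnmt3a for Tnfr1KO-labelled and Tnfr2KO.

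Iigp1 was called in all cells, in stem-like and in megakaryocyte-like cells, and of the 5 tested classes its level was highest in stem-like cells. There it was at 53.7, 33.7 and 39.97 CPM in MxCre, 12.6, 27.1, 18.2 and 18.3 in Dnmt3a, 17.4, 23.3 and 21.2 in Tnfr1KO-labelled, and 15.1, 13.9, 9.33 and 13.3 CPM in Tnfr2KO. All 11 mice lay below MxCre, and 3 of the 4 Dnmt3a mice and all Tnfr1KO-labelled mice lay above every Tnfr2KO mouse. The log2 fold changes against MxCre were -1.17 in Dnmt3a (SE 0.203, edgeR adjusted p = 0.00571), -1.01 in Tnfr1KO-labelled (SE 0.237, 0.0847) and -1.68 in Tnfr2KO (SE 0.208, 0.000185). The Dnmt3a value was -0.90 with the library split as a term (adjusted p = 0.377), while the Tnfr2KO call held in 10 of 10 alternatives. Tnfr2KO against Dnmt3a was -0.51 (SE 0.216, adjusted p = 0.315).

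The share of cells with the gene was also highest in MxCre. Among stem-like cells with at least 5000 UMIs, thinned to that depth, an Iigp1 UMI was found in 13.01% to 18.6% in MxCre, 6.77% to 9.30% in Dnmt3a, 7.92% to 9.41% in Tnfr1KO-labelled and 4.21% to 7.77% in Tnfr2KO. Unthinned shares were 24.3% to 33.6%, 17.4% to 26.7%, 14.3% to 20.2% and 5.02% to 16.0%, over median depths of 7196 to 21675 UMIs. In granulocyte-like cells, which had deeper libraries (median 22288 to 52599 UMIs), the thinned share was 0% to 1.00%. That class is one where the gene was near 0, so this comparison could not have come out otherwise. It does not bear on the difference between groups.

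Among the other tested classes, Iigp1 was present at lower level than in stem-like cells in megakaryocyte-like cells. It was at 11.7, 7.30 and 8.57 CPM in MxCre, 5.06, 3.304 and 5.11 in Dnmt3a 1 to 3 (Dnmt3a 4 had too few such cells), 2.27, 2.12 and 6.96 in Tnfr1KO-labelled, and 1.63, 1.79, 0.838 and 0.644 CPM in Tnfr2KO. Tnfr2KO lay below every other mouse, and against MxCre its log2 fold change was -2.66 (SE 0.361, edgeR adjusted p = 0.0016), a call that held in 10 of 10 alternatives. It was the 1 member of 37 called in that class, beside 0.44% of all genes. In erythroid-like cells MxCre 1, 2 and 3 had 14.8, 3.65 and 0.263 CPM, a spread that covered all other mice except Dnmt3a 4, where the gene was at 0. In monocyte-like and granulocyte-like cells every mouse was at 1.63 CPM or lower. Some classes not tested between groups matched stem-like cells in Dnmt3a 4, where stem-like cells had 19.9 CPM of Iigp1 without the TMM factor. B-lymphoid-like cells had 20.6 CPM there, T, NK and innate lymphoid-marked cells 27.9 CPM (14 UMIs) and macrophage-marked cells 30.4 CPM (19 UMIs). The remaining untested classes had 13.6 CPM or less. B-lymphoid-like cells held 68.3% of the Iigp1 UMIs of that library.

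**Figure D4:**
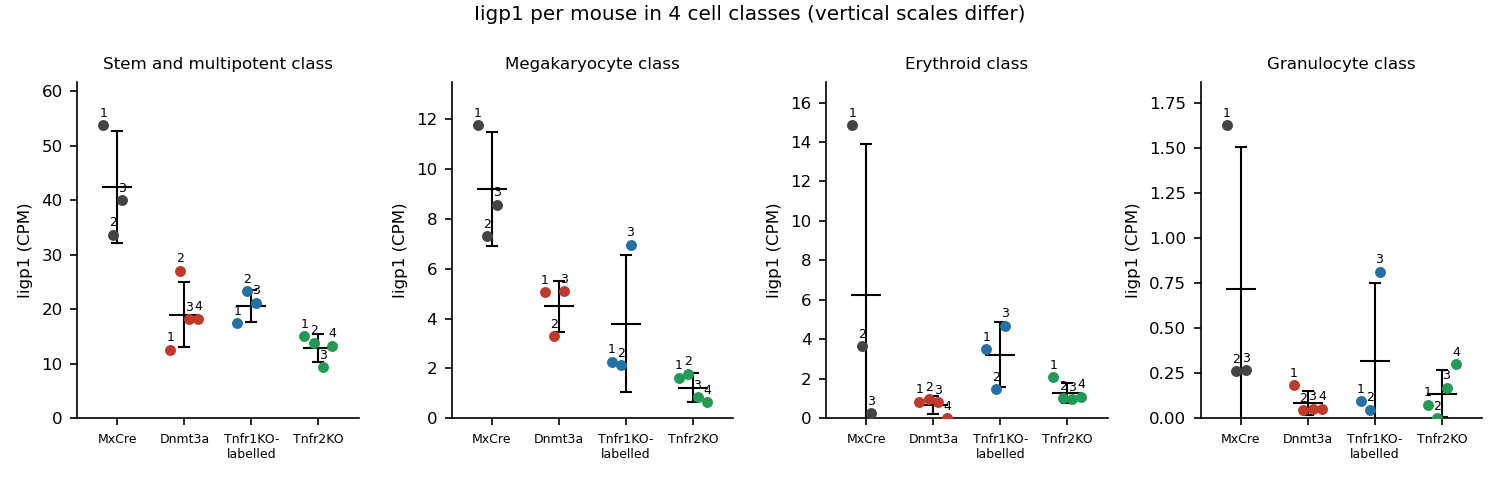
Iigp1 level in CPM (y axis) for each mouse by group in stem-like, megakaryocyte-like, erythroid-like and granulocyte-like cells; points are mice with replicate numbers, bars the mean and SD, cut at 0 where the SD exceeds the mean. Stem-like levels reach 53.7 CPM, granulocyte-like levels at most 1.63 CPM, and Tnfr2KO lies below MxCre in the stem-like and megakaryocyte-like panels.

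In granulocyte-like cells, the largest class with 15586 cells, members were called at a share near or below that of all genes in the 3 comparisons that had calls. In Dnmt3a against MxCre 2 of 41 were called by edgeR, beside 5.78% of all genes, 13 reached an unadjusted p below 0.05 (23.9%) and DESeq2 called 3 (10.3%), Bst2, Ifi27 and Ifit2. Bst2 fell from 148, 133 and 139 CPM in MxCre to 90.7, 110.4, 111 and 111 CPM in Dnmt3a (log2 fold change -0.41, SE 0.0943, adjusted p = 0.025). Ifit2 rose from 4.82, 6.08 and 4.44 CPM to 8.90, 7.47, 7.31 and 7.83 CPM (0.62, SE 0.148, adjusted p = 0.0286). Neither gene overlapped between the 2 groups, on the values by which the test had picked them. Both lost their calls when any single MxCre mouse was left out (edgeR adjusted p = 0.0689 to 0.144 for Bst2 and 0.0531 to 0.149 for Ifit2), and Ifit2 stood at 0.0519 without Dnmt3a 1. With the library split as a term neither was called (0.285 for Bst2 and 0.195 for Ifit2).

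In Tnfr2KO, Ifit2 was within the MxCre range or just below it, at 5.61, 5.27, 4.09 and 5.29 CPM. It fell against Dnmt3a by 0.63 (SE 0.13, edgeR adjusted p = 0.0173), the 1 member of 41 called beside 4.69% of all genes, and the call held in 11 of 11 alternatives. There were 10 members at an unadjusted p below 0.05 (25.6% of all genes) and 3 by DESeq2 (9.99%), Bst2, Ifit2 and Sp100. In Tnfr1KO-labelled against Dnmt3a 2 of 41 were called, beside 4.53% of all genes, with 13 unadjusted (24.4%) and 5 by DESeq2 (9.3%), Ifih1, Ifit2, Oas1a, Parp14 and Parp9. Ifih1 (MDA5), a sensor of long double-stranded RNA, was at 14.6, 10.9, 9.93 and 12.2 CPM in Dnmt3a and 9.02, 6.07 and 7.61 CPM in Tnfr1KO-labelled (-0.64, SE 0.161, adjusted p = 0.0346). Parp9, which works with Dtx3l in ADP-ribosylation, was at 12.9, 9.21, 9.84 and 10.1 CPM against 7.67, 6.55 and 7.20 CPM (-0.55, SE 0.122, adjusted p = 0.0233). The groups did not overlap for either gene, on the values by which the test had picked it. Ifih1 lost its call without Dnmt3a 1 or 4 or Tnfr1KO-labelled 2 or 3 (edgeR adjusted p = 0.0665 to 0.186), and Parp9 when any single Tnfr1KO-labelled mouse was left out (0.0557 to 0.125). With the library split as a term neither was called (0.223 for Ifih1 and 0.387 for Parp9). Ifih1 also lost its call with the replicate block. It held in 4 of 10 alternatives and Parp9 in 6 of 10. Tnfr1KO-labelled against MxCre had 0 members called by edgeR (0.102% of all genes), 0 at an unadjusted p below 0.05 (3.2%) and 0 by DESeq2 (0.321%). Tnfr2KO against MxCre had 0 by edgeR (0.344%), 2 unadjusted (7.71%) and 0 by DESeq2 (0.727%).

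In monocyte-like cells edgeR called 0 of 40 members in all 5 comparisons run there. Dnmt3a against MxCre had 0 by edgeR beside 0.544% of all genes, 8 at an unadjusted p below 0.05 (17.7%) and 1 by DESeq2 (3.88%), which was Bst2. Most unadjusted values were found against Dnmt3a, and they were mostly lower. Tnfr1KO-labelled had 0 by edgeR (1.1%), 17 unadjusted (19.6%), of which 15 were lower (11.6%), and 2 by DESeq2 (4.06%), Ddx58 and Ifih1, both sensors of viral RNA. Tnfr2KO had 0 by edgeR (1.67%), 18 unadjusted (20.8%), of which 17 were lower (12.3%), and 1 by DESeq2 (4.64%), Ddx58. Against MxCre, Tnfr1KO-labelled had 0 by edgeR (0.102%), 8 unadjusted (3.8%) and 0 by DESeq2 (0.162%), and Tnfr2KO 0 (0.221%), 9 (7.17%) and 0 (0.408%). Without Dnmt3a 4, edgeR called 3 members in Dnmt3a against MxCre (Samhd1, Xaf1 and Zbp1), all lower and beside 2.8% of all genes in that fit. The monocyte-like module sum of Dnmt3a 4 was 948 CPM, against 712 to 815 CPM in Dnmt3a 1 to 3. The members under 10 CPM summed to 127 CPM in Dnmt3a 4 and 41.1 to 59.4 CPM in Dnmt3a 1 to 3. In the receptor groups they summed to 39.4 to 55.0 CPM, which overlapped Dnmt3a 1 to 3. The summed module was 804 ± 81.0 CPM in MxCre, 801 ± 108 in Dnmt3a, 709 ± 65.1 in Tnfr1KO-labelled and 725 ± 16.2 CPM in Tnfr2KO (SD, n = 3, 4, 3 and 4), with every pair of groups overlapping. Monocyte-like cells were also thinned to 5000 UMIs, as for stem-like cells. Those with at least 10 module UMIs then made up 3.05% to 10.6% in MxCre and 2.56% to 18.6% in Dnmt3a. The shares were 0.860% to 1.68% in Tnfr1KO-labelled and 1.05% to 1.56% in Tnfr2KO. On that scale both receptor groups lay wholly below MxCre and Dnmt3a.

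Erythroid-like cells of Dnmt3a 4 stood apart from those of all other mice. Their summed module reached 4157 CPM, whereas Dnmt3a 1 to 3 lay between 662 and 718 CPM. Without the TMM factor it was 2129 CPM, and 676 to 1041 CPM in the other 13 libraries. On the same scale without that factor, the level of Isg15 in erythroid-like cells was 579 CPM in Dnmt3a 4 and 6.09 to 78.8 CPM in the other 13 libraries. Isg20 was at 492 CPM against 46.9 to 114 CPM, and Rsad2 at 341 CPM against 1.91 to 39.7 CPM. The next highest library for all 3 genes was Tnfr1KO-labelled 1. Among cells deep enough for the same thinning, 46.6% of erythroid-like cells of Dnmt3a 4 had an Isg15 UMI, 85.9% an Isg20 UMI and 48.1% an Rsad2 UMI. In MxCre these shares were 6.59% to 8.87%, 24.6% to 28.2% and 1.72% to 6.55%. For Isg20 the share was 17.5% to 29.6% in Dnmt3a 1 to 3, 17.2% to 32.8% in Tnfr1KO-labelled and 18.01% to 24.5% in Tnfr2KO, against 1.64% to 5.54% in granulocyte-like cells of the 14 libraries. Unthinned, Isg20 was found in 96.7% of erythroid-like cells of Dnmt3a 4 and 43.1% to 71.2% in the other libraries.

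These 299 cells held most of the UMIs of those 3 genes in that mouse, but not of every member. They contributed 71.6% of all Isg15 UMIs, 68.9% of Isg20 UMIs and 77.4% of Rsad2 UMIs of the library. For the transcription factor Irf7 the share was 24.97%, for Ifi44 0.323% and for Ifi209 0.0984%, and Ifit3 and Iigp1 had no UMI there. They also differed in maturity markers. Globin transcripts were 40.8% of their UMIs against 0.148% to 2.87% in erythroid-like cells of the other 13 libraries, Kit was at 15.1 CPM against 72.4 to 229 CPM, and the transferrin receptor Tfrc at 677 CPM against 59.5 to 265 CPM. The part of these differences in the high Isg15, Isg20 and Rsad2 levels was not tested. By edgeR 0 of 39 members were called in Dnmt3a against MxCre in this class, where 0% of all genes were called. There were 8 members at an unadjusted p below 0.05 (16.2% of all genes) and 2 by DESeq2 (1.38%), Bst2 and Eif2ak2. Against Dnmt3a, Tnfr1KO-labelled had 0 by edgeR (0.0275%), 3 unadjusted (11.7%) and 0 by DESeq2 (0.623%). Tnfr2KO against Dnmt3a had 0 by edgeR (0.0825%), 12 unadjusted (15.8%) and 1 by DESeq2 (0.761%), Rsad2. Against MxCre, Tnfr1KO-labelled had 0 by edgeR (0.00917%), 1 unadjusted (0.981%) and 0 by DESeq2 (0.0733%), and Tnfr2KO 0 (0.119%), 1 (1.78%) and 0 (0.248%).

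**Figure D5:**
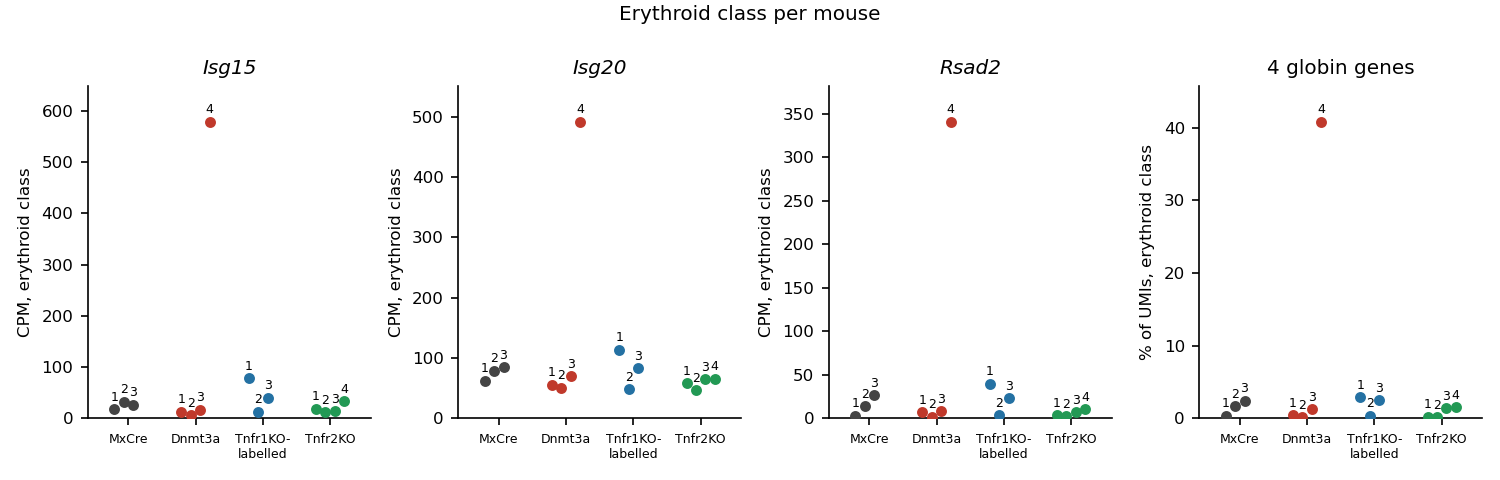
Level in CPM without the TMM factor (y axis) of Isg15, Isg20 and Rsad2 in erythroid-like cells of each library by group; points are mice with replicate numbers. Dnmt3a 4 lies at 579, 492 and 341 CPM, above all other libraries, whose highest values are 78.8, 114 and 39.7 CPM.

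Megakaryocyte-like cells gave no other member call. Dnmt3a against MxCre, over 3 Dnmt3a mice, had 0 of 37 members by edgeR (0.37% of all genes), 7 at an unadjusted p below 0.05 (17.3%) and 0 by DESeq2 (2.42%). Tnfr1KO-labelled against MxCre had 0 by edgeR (0.0799%), 2 unadjusted (4.82%) and 0 by DESeq2 (0.16%). Against Dnmt3a, Tnfr1KO-labelled had 0 by edgeR (0.2%), 2 unadjusted (12.6%) and 0 by DESeq2 (1.09%), and Tnfr2KO 0 (0.13%), 5 (12.7%) and 0 (0.839%). The class gave a module sum of 952 ± 87.3 CPM in MxCre, 911 ± 109 in Dnmt3a, 857 ± 25.4 in Tnfr1KO-labelled and 840.4 ± 88.0 CPM in Tnfr2KO (SD, n = 3, 3, 3 and 4), and the Tnfr1KO-labelled mice lay below all MxCre mice.

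The signalling genes upstream of the module did not pass the test in all cells. A list of 39 names of interferons, receptors, kinases, transcription factors and sensors held 37 genes, since 2 names were synonyms of listed genes (Mb21d1 of Cgas and Sting1 of Tmem173). Of the 37, 30 passed the filter on low counts, and 6 of the 7 that did not were interferons. By edgeR, 0 of 30 were called in each of the 6 all-cell comparisons, beside 0.186% to 2.42% of all genes. At an unadjusted p below 0.05 there were 9 in Dnmt3a against MxCre (23.6% of all genes), 7 in Tnfr1KO-labelled against MxCre (12%), 8 in Tnfr2KO against MxCre (15.1%), 4 in Tnfr1KO-labelled against Dnmt3a (19.7%), 7 in Tnfr2KO against Dnmt3a (22.9%) and 1 in Tnfr2KO against Tnfr1KO-labelled (3.76%). DESeq2 called 3, 2, 1, 0, 2 and 0 in the same order, beside 9.91%, 3.15%, 2.54%, 5.84%, 6.99% and 0.633% of all genes. All 9 in Dnmt3a against MxCre were higher, where 13.3% of all genes were, and the list's median there was 0.19 against 0.03 over all genes. The highest levels, as means over the 14 libraries, belonged to the interferon gamma receptor chain Ifngr1 (214 CPM), the myeloid transcription factor Irf8 (111 CPM), the type I receptor chain Ifnar2 (88.1 CPM), Jak1 (85.1 CPM) and the repressor Irf2 (62.4 CPM). In stem-like cells Socs1, a feedback inhibitor of the Jak kinases, was the 1 of 26 called in Dnmt3a against MxCre, beside 4.60% of all genes, and was lower. In the same comparison 1 of 27 was called in granulocyte-like cells (5.78%) and 1 of 23, Cgas, in megakaryocyte-like cells (0.37%), both higher. Tnfr2KO against MxCre had 1 of 26 called in stem-like cells (1.35%), and it was lower.

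A further list of 57 interferon targets outside the module had 56 rows, and 55 passed the filter. In all cells edgeR called 1 of 55 in Dnmt3a against MxCre (2.42% of all genes), 0 in Tnfr1KO-labelled against MxCre (0.32%), 1 in Tnfr2KO against MxCre (0.429%), 0 in Tnfr1KO-labelled against Dnmt3a (0.48%), 2 in Tnfr2KO against Dnmt3a (0.876%) and 1 in Tnfr2KO against Tnfr1KO-labelled (0.186%), all lower. Where edgeR called 0, there were 11 and 8 at an unadjusted p below 0.05 (12% and 19.7%). In the same order of comparisons DESeq2 called 5, 3, 8, 1, 14 and 2 (9.91%, 3.15%, 2.54%, 5.84%, 6.99% and 0.633% of all genes), of which 1 was higher in Dnmt3a against MxCre and 2 in Tnfr2KO against Dnmt3a. Uba7, the enzyme that activates Isg15 for attachment, was at 30.2, 35.5 and 48.3 CPM in MxCre and 18.02 to 27.7 CPM in the other 11 mice, without overlap. Its log2 fold change in Dnmt3a was -0.84 (SE 0.168, edgeR adjusted p = 0.0338), and -0.94 and -0.78 in Tnfr1KO-labelled and Tnfr2KO (adjusted p = 0.0505 and 0.0716).

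Phf11d and Phf11b, neighbouring genes of a zinc-finger family, were low in Tnfr2KO. Phf11d was at 6.36, 4.00 and 5.08 CPM in MxCre and at 1.23, 0.999, 1.02 and 0.666 CPM in Tnfr2KO, and fell by 2.40 (SE 0.419, edgeR adjusted p = 0.0233). It was also called lower in Tnfr2KO against Dnmt3a, but not against Tnfr1KO-labelled. In stem-like cells Phf11d was at 14.8 to 19.7 CPM in MxCre, 1.93 to 16.5 in Dnmt3a, 5.31 to 10.3 in Tnfr1KO-labelled and 2.25 to 5.18 CPM in Tnfr2KO. Phf11b was at 3.77, 5.22, 4.49 and 6.66 CPM in Dnmt3a, 4.03, 4.14 and 4.59 CPM in Tnfr1KO-labelled and 2.12, 1.85, 1.59 and 2.21 CPM in Tnfr2KO. It fell in Tnfr2KO by 1.37 against Dnmt3a (SE 0.181, adjusted p = 0.003) and by 1.13 against Tnfr1KO-labelled (SE 0.191, adjusted p = 0.0274). The 4 Tnfr2KO mice lay below all others for Phf11b. In stem-like cells of Dnmt3a against MxCre edgeR called 5 of 41 targets beside 4.60% of all genes, all lower (Ifi27l2a, Ifitm1, Ifitm2, Ifitm3 and Uba7). In Tnfr2KO against MxCre it called 3 of 41 beside 1.35%, all lower (Irgm2, Phf11d and Uba7). Tnfr2KO against Dnmt3a had 1 of 41 called beside 0.676%, and it was higher. That gene was Ifitm1, a membrane protein that hinders viral entry, at 274, 342, 176 and 252 CPM in stem-like cells of Dnmt3a and 488, 572, 1481 and 501 CPM in those of Tnfr2KO (log2 fold change 1.54, SE 0.317, adjusted p = 0.0270).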

How the data were processed

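Single-cell RNA was measured in 14 mouse marrow libraries. The deposited values are counts of UMIs per gene and cell barcode, which per the file headers the authors made with Cell Ranger 6.0.0; the submitters' processing notes also name bcl2fastq 2.20.0.422 and mm10/GRCm38. Such filtering of barcodes before deposit sets which cells could be counted.

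A cell was kept if it held 1000 or more UMIs from 500 or more genes, with less than 10% mitochondrial, and doublets called from simulated doublets (0.8% per 1000 cells) were removed. Median UMIs per kept cell ran from 10766 to 39086 over the libraries. Cells were classed by 13 marker sets (100 genes) on a mean standardised score above 0.5, at least 0.25 above the next class, with at least 2 own markers; this scoring rule was set after the matrices were seen. UMIs were summed per mouse, and per class where at least 20 cells a library and 2 libraries a group remained. Sums were tested with edgeR 4.0.16 (quasi-likelihood, two-sided, TMM, all 4 groups in 1 model, R 4.3.3), with Benjamini-Hochberg adjustment over all genes tested and a threshold of 0.05. DESeq2 1.42.0, other scalings and filters, left-out libraries and a replicate block were the alternatives. The fitting was first tested on simulated data. Module sums were described without a test.

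Members and lists were chosen with earlier results of these data known. Called members were picked on the same values whose levels are given. A lack of overlap between the compared groups is therefore no further support, and its share over all genes is not given. Named members were those called in all cells, the 10 of highest level, the 5 largest changes per all-cell comparison, Usp18 and Isg15, and up to 5 called members per class comparison. Isg20, Bst2 and Lgals3bp in stem-like cells, members called by DESeq2 or with a library left out, and the member levels by class were named after values were seen. Comparisons of the receptor groups with MxCre within classes were added after seeing the data. B-lymphoid-like and dendritic-marked cells were not tested. The signalling list's counts are over its genes that passed the filter and cover 1 gene that is not reported here.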

Additional observations from a re-analysis of the deposited data

Results flagged for a closer look

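Each of 63 tests took 1 gene or module sum in the 4 Dnmt3a or the 4 Tnfr2KO mice. In 10, the highest or lowest mouse lay apart from the nearest of the others by a large part of the group's range. Chance gives about 1 in 20 for independent normal values. The tests reuse the same mice and related genes, so 10 of 63 is not set against that rate. Dnmt3a 4 accounted for 6 of the 10. In all cells it stood at 31.2 CPM for Isg15 (others 4.79 to 7.26), 16.97 CPM for Rsad2 (1.78 to 3.02), 5.82 CPM for Zbp1 (2.02 to 2.50) and 1.34 CPM for Ifit3 (0.110 to 0.235). Its module sum was 1269 CPM in stem-like cells (others 1174 to 1189.7) and 4157 CPM in erythroid-like cells (662 to 718). Without the TMM factor the erythroid-like sum was 2129 CPM (others 723 to 911). Dnmt3a 1 had 47.6 CPM of Eif2ak2 (others 29.2 to 31.9). In Tnfr2KO, mouse 4 had 119.9 CPM of Ifi27 (others 84.0 to 89.4) and 0.253 CPM of Ifit3 (others 0.0799 to 0.0978), and mouse 2 had 27.3 CPM of Ifi35 (others 32.4 to 32.6).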

How the results depend on the processing

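The share of all genes called also moved between fits. In Dnmt3a against MxCre in all cells it was 2.42% in the main fit, 9.91% with DESeq2 and 7.98% without Dnmt3a 2. Where no share stands beside a count, the count is not read as a result about the members. In all cells, the number of members called in Dnmt3a against MxCre (1) was 7 with DESeq2 and 0 with doublets kept, without the filter on low counts, with only the 2 groups in the fit and with the replicate block. It was also 0 with the library split as a term or without Dnmt3a 1 and 4, alternatives chosen after seeing the data. Leaving out 1 library gave 0 to 5, the 5 being without Dnmt3a 4, beside 3.27% of all genes. Tnfr1KO-labelled against MxCre had 7 with DESeq2 (3.15% of all genes) and 2 with only the 2 groups, a fit whose share is not given. Tnfr2KO against MxCre had 4 with DESeq2 (2.54% of all genes) and 8 with only the 2 groups (1.14%). It had 0 with the split as a term or with Tnfr2KO mice of the same side of the split (both chosen after seeing the data), and 0 to 1 with 1 library left out. Against Dnmt3a, Tnfr1KO-labelled had 4 with DESeq2 (5.84% of all genes) and 0 to 1 with 1 library left out, and Tnfr2KO 4 (6.99%) and 0 to 3.

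In stem-like cells, Dnmt3a against MxCre had 2 with the split as a term (0.518% of all genes) and 2 to 7 with 1 library left out. Over the left-out fits whose share is given above, it ran from 0.494% (without MxCre 3) to 3.32% (without Dnmt3a 3). The counts of members and of all genes both moved between these fits, but not in step. Without Dnmt3a 1 there were 5 members beside 2.22% of all genes, and without MxCre 1 there were 3 beside 2.46%. Shares for the fits without Dnmt3a 2 or 4 are not given. Tnfr1KO-labelled against MxCre had 2 with DESeq2 (0.412% of all genes), 1 with the split as a term, 1 with the replicate block and 0 to 1 with 1 library left out. With 1 library left out, Tnfr2KO had 1 to 2 against MxCre and 0 to 1 against Dnmt3a. In granulocyte-like cells, Dnmt3a against MxCre had 1 with the split as a term, 4 with the replicate block and 0 to 2 with 1 library left out. The main fit had 2 of 41, beside 5.78% of all genes. Shares in those other fits are not given, so the changed counts are not read as results about the members. Tnfr1KO-labelled against Dnmt3a had 5 with DESeq2 (9.3% of all genes), 0 with the split as a term, 1 with the replicate block and 0 to 2 with 1 library left out. Tnfr2KO against Dnmt3a had 3 with DESeq2 (9.99%). In monocyte-like cells the counts with DESeq2 were 1 (Dnmt3a against MxCre), 2 and 1 (Tnfr1KO-labelled and Tnfr2KO against Dnmt3a), beside 3.88%, 4.06% and 4.64% of all genes. With 1 library left out they were 0 to 3, 0 to 1 and 0 to 3. The first 3 came without Dnmt3a 4, beside 2.8% of all genes, and the other shares are not given. In erythroid-like cells DESeq2 gave 2 (Dnmt3a against MxCre, beside 1.38% of all genes) and 1 (Tnfr2KO against Dnmt3a, beside 0.761%).

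The module's log2 ratio without the TMM factor was -0.31 and -0.30 for Tnfr1KO-labelled and Tnfr2KO against Dnmt3a in all cells (with it -0.11 and -0.08) and -0.29 for Tnfr2KO against MxCre (-0.17). As a mean of log2(CPM + 1) it was -0.35 and -0.34 for Tnfr1KO-labelled and Tnfr2KO against MxCre. Without Dnmt3a 1 and 4, chosen after seeing the data, Tnfr2KO against Dnmt3a was 0.043. In stem-like cells without the TMM factor it was -0.17 for Dnmt3a against MxCre, and -0.12 and -0.082 for the receptor groups against Dnmt3a (with it 0.02 and 0.06). The cause of these shifts was not tested.

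Of the counts and module levels recomputed, 407 stayed within their limits and 74 moved. The limits were a small fold for counts and the pooled SD of the compared groups for module levels. Counts of 0 that stayed 0 are among the 407, so this tally does not measure how firm the calls are. Of the values for the 14 named calls, 97 kept their call, 56 lost it and none changed sign. The stem-like calls of Bst2, Isg20 and Lgals3bp are not among these 14. Replicate numbers did not pair the mice: over 19 same-numbered pairs r ran from -0.36 to 0.24, with 5 above 0.1, and 2 of 14 libraries correlated best with their own number. The replicate block left the other counts within their limits. B-lymphoid-like and dendritic-marked alternatives were not run. Members under 10 CPM (22 of 43) carry the widest errors in the smaller classes.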
